A study of Homo sapiens with 12 samples.

Results

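RNA sequencing of A549 cells, an established human lung adenocarcinoma line, was used to ask which transcripts move in the same direction with either of 2 small interfering RNAs (siRNAs) against GOLM1. The 12 libraries were 4 from cells given a non-targeting control siRNA, 4 from cells given siGOLM1-1 and 4 from cells given siGOLM1-2. All 3 groups received their siRNA at 50 nM by reverse transfection with Lipofectamine RNAiMAX and were harvested 72 h later, so the transfection itself is shared by control and knockdown. The labels call the 4 libraries of a group biological replicates, and every library comes from this one line. All 8 knockdown libraries were compared with the 4 controls, with each siRNA given equal weight. A gene is described as separated when its normalised level, in counts scaled to a common library total (counts per 1000000, CPM), lay on one side of all 4 controls in all 8 knockdown libraries. This held for 2913 of 17532 genes tested (16.6%). Of these, 1453 (8.29% of genes tested) lay above the controls and 1460 (8.33%) below.

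GOLM1, also called GP73, is a membrane protein of the cis-Golgi that faces the Golgi lumen. It can be cleaved by proprotein convertases such as furin and released from cells, and its level is raised in liver disease and in several carcinomas. An siRNA is a short RNA duplex loaded into the RNA-induced silencing complex, which cuts transcripts that match its guide strand and can also lower other transcripts that match only its seed. Using a pair of siRNAs against one gene allows changes that appear with either to be listed apart from changes that appear with 1 of them.

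Each library held between 41.6 M and 71.3 M counts. Mitochondrially encoded transcripts took 5.14 to 8.13% of counts in the control libraries, 3.22 to 4.89% with siGOLM1-1 and 4.87 to 7.27% with siGOLM1-2. All 11 epithelial and A549 markers were present in every library, from EPCAM at 3.02 to 6.28 CPM to KRT8 at 1636 to 4438 CPM. Of 15 markers of immune, endothelial, stromal, liver and neural cells, 14 were in the table and 8 passed the filter on low counts. Their summed level was 88.95 to 135.3 CPM in the control, 100.3 to 151 CPM with siGOLM1-1 and 95.8 to 100.4 CPM with siGOLM1-2. Over all libraries COL1A1 was at 21.3 to 92.8 CPM, ACTA2 at 31.1 to 55.7, CD14 at 6.705 to 15.2 and SYP at 1.97 to 3.80. CD3E was at 0 in 11 libraries and PTPRC in 6. The control libraries formed 2 pairs, replicates 1 and 2 against replicates 3 and 4, whose means differed by a median of 0.205 on the log2 scale over the genes tested. SiGOLM1-2 replicate 4 stood apart from the other siGOLM1-2 libraries at many of the genes named below. Leaving that library out moved the fold of 0 of the 151 genes named by over 1.5 times, and leaving out either control pair did so for 11, whose values against each pair are given beside the gene. For another 16 the values against the pairs were over 1.5 times apart, and they are given at the end.

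GOLM1 (ENSG00000135052) itself was lower in all 8 knockdown libraries. The control libraries held 372, 378, 371 and 345 CPM, the siGOLM1-1 libraries 38.9, 38.7, 38.8 and 37.5 CPM and the siGOLM1-2 libraries 47.2, 44.7, 44.6 and 53.4 CPM. The groups did not overlap, and the knockdown library nearest to the controls, siGOLM1-2 replicate 4, differed from the lowest control by -2.69 on the log2 scale. The pooled log2 fold change was -3.1 (SE 0.06, edgeR adjusted p = 2.75e-13).

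By the pooled test, 7611 genes (43.4% of those tested) were called at an adjusted p under 0.05, 3585 of them higher (20.4%) and 4026 lower (23%). When the siRNAs were treated as a single group of 8 libraries, so that their difference from each other counted as spread, the calls fell to 3603, with 1880 higher and 1723 lower. Of the 2913 separated genes, 2653 were still called in the same direction in that fit. Of the separated genes 2897 were called in the 3-group fit and 16 were not, which is read as a description because both use the same values. The converse did not hold. A further 4714 genes were called without being separated, and in 1137 of these the fitted fold changes of the siRNAs had opposite signs. Each siRNA was called against control in the same direction for 3154 genes (18%), and in opposite directions for 1246. Of the 2913 separated genes, 2548 were called with each siRNA, 347 with 1 of them and 18 with neither. A separated gene was therefore not always called with both.

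Separated genes moved by modest amounts. Those above the controls had a median log2 fold change of 0.68, with 80% of them between 0.32 and 1.66, and 410 rose by at least 1. Those below had a median of -0.59, with 80% between -1.14 and -0.30, and 232 fell by at least 1. The edges of the groups were often close: the ratio between the nearest knockdown library and the nearest control was under 1.1 for 616 of the 1453 higher genes and 708 of the 1460 lower genes. It was at least 2 for 40 higher and 11 lower genes. At the edge of the rule among genes averaging at least 50 CPM in the higher arm, DPH3, a diphthamide synthesis gene, lay just inside, with a highest control of 42.9 CPM and a lowest knockdown library of 42.9 CPM that exceeded it. LRP3, at 58.7 and 58.8 CPM, was also just inside. CNP, whose lowest knockdown library and highest control both rounded to 142 CPM, and ADAMTS7, where both rounded to 46.7 CPM, lay just outside. On the lower side the nucleoporin gene NUP62 (lowest control 121.8 CPM, highest knockdown 121.7 CPM) and ENC1 (44.9 and 44.8 CPM) were just inside, and the chaperone gene HSPA4 (381.3 and 381.5 CPM) and THBS1 (194.3 and 194.5 CPM) just outside. Protein-coding genes were separated more often than other classes: 18.8% of 13858 protein-coding genes, 8.83% of 2232 long non-coding genes and 7.62% of 840 pseudogenes. Separated genes also had more counts, with a median of 26.7 CPM for those above and 28.7 CPM for those below against 15 CPM over genes tested, and the part of depth in these shares was not tested.

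The size of the change often differed between siRNAs even where the side was the same. A direct comparison of siGOLM1-1 with siGOLM1-2, which uses no control library, called 9541 of 17532 genes (54.4%). Among separated genes it called 1315 (45.1%), and among genes called in the pooled test but not separated it called 3396 (72%). Separation requires both siRNA groups on the same side of control, so the contrast of these shares is partly set by the rule. Of the 688 higher genes with a called difference, 439 had moved farther with siGOLM1-1 and 249 with siGOLM1-2. Of the 627 lower genes, 359 had moved farther with siGOLM1-1 and 268 with siGOLM1-2. The median log2 fold change of the higher genes was 0.71 with siGOLM1-1 and 0.61 with siGOLM1-2, and that of the lower genes -0.59 and -0.54. Both siRNAs share the 4 control libraries.

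**Figure D1:**
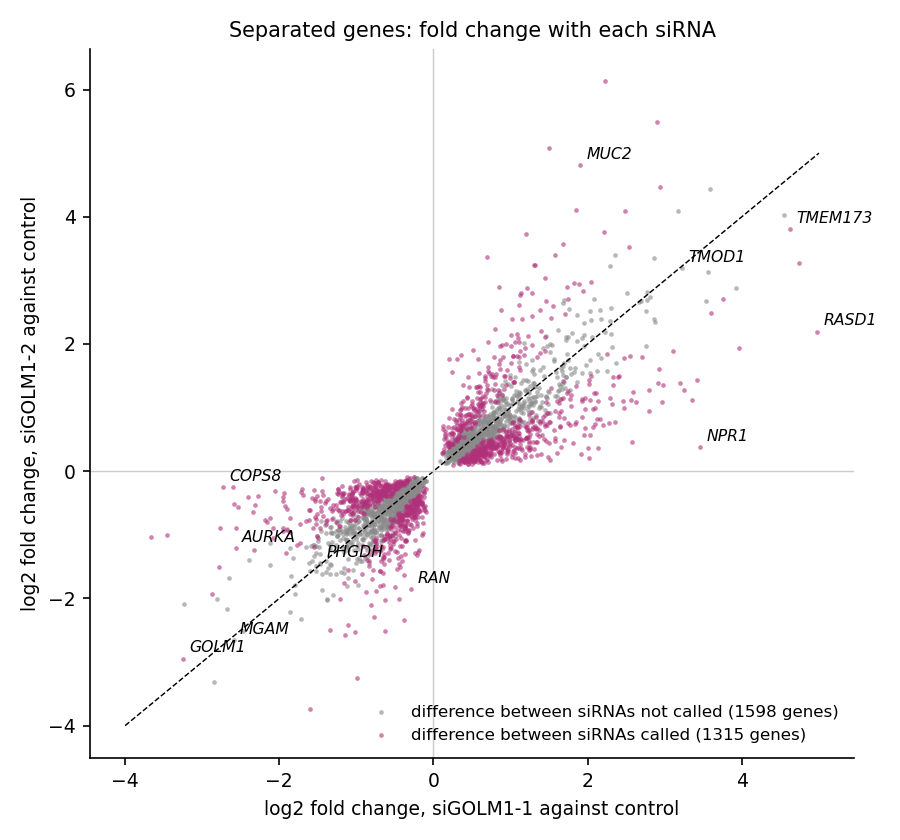
Log2 fold change against control with siGOLM1-1 (horizontal axis) and siGOLM1-2 (vertical axis) for the 2913 separated genes, each a point. The dashed line marks equal change, and coloured points are the 1315 genes whose siRNA groups differed (edgeR adjusted p under 0.05). COPS8, NPR1 and RAN lie far from the line, and MGAM, PHGDH and TMOD1 close to it.

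Among separated genes that reached at least 5 CPM in the higher arm, the largest pooled rise was in TMEM173 (ENSG00000184584), which encodes STING, the adaptor that relays cytosolic DNA sensing. The control libraries held 0.3402, 0.337, 0.148 and 0.221 CPM, the siGOLM1-1 libraries 3.66, 7.53, 6.48 and 8.32 CPM and the siGOLM1-2 libraries 2.81, 2.67, 2.86 and 6.403 CPM. The lowest knockdown library was several times the highest control, and siGOLM1-2 replicate 4 held over 2 times as much as its fellow libraries. The pooled log2 fold change was 4.22 (SE 0.38, adjusted p = 2.98e-06) and 4.01 without that library. RASD1, a small GTPase of the Ras family, was lowest in control replicates 3 and 4 (1.42, 1.68, 0.36 and 0.362 CPM over the 4 controls). It reached 19.8 to 36.9 CPM with siGOLM1-1 and 3.42 to 5.13 CPM with siGOLM1-2, a pooled change of 3.58 (SE 0.37) that was 2.87 against the control replicates 1 and 2 and 4.98 against replicates 3 and 4. MUC2, a gel-forming mucin, rose farther with siGOLM1-2, from 0.127 to 0.7005 CPM in the control to 1.08 to 2.205 with siGOLM1-1 and 5.37 to 15.5 with siGOLM1-2. Its pooled change was 3.36 (SE 0.4), 2.85 against the first control pair and 4.13 against the other.

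TMOD1, which encodes the actin pointed-end capping protein tropomodulin, rose alike with either siRNA. It went from 2.12, 2.02, 1.08 and 1.17 CPM in the controls to 7.07, 15.6, 21.9 and 15.1 CPM with siGOLM1-1 and 12.2, 12.1, 11.1 and 22.7 CPM with siGOLM1-2. The groups stood well apart although siGOLM1-1 replicate 1 was the lowest knockdown library and siGOLM1-2 replicate 4 the highest. The pooled change was 3.2 (SE 0.35, adjusted p = 1.23e-05), and the difference between siRNAs was 0.03, with a 95% interval of -0.69 to 0.75. Rises of similar size were seen in OSBP2, of the oxysterol-binding protein family that moves lipids between membranes, in the secreted protein gene CRISPLD2 and in SEMA7A, a membrane-anchored semaphorin. OSBP2 held 6.004, 5.699, 3.56 and 3.93 CPM in the controls, 22.1, 35.2, 45.2 and 32.3 CPM with siGOLM1-1 and 23.6, 25.4, 23.3 and 55.1 CPM with siGOLM1-2 (2.77, SE 0.3, 2.57 without siGOLM1-2 replicate 4). CRISPLD2 ranged over 1.47 to 2.26 CPM in the control, 9.15 to 31.1 with siGOLM1-1 and 7.11 to 23.8 with siGOLM1-2 (3.1, SE 0.43, 2.79 without that library). SEMA7A was at 0.685 to 0.941, 2.22 to 7.395 and 2.56 to 11.9 CPM in the same order (2.66, SE 0.48, 2.26 without it). In each of these genes the highest siGOLM1-2 value was that of replicate 4.

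CEACAM6, a cell surface adhesion protein of many carcinomas, was more even among the siGOLM1-2 libraries. It held 30.1, 36.1, 20.1 and 17.1 CPM in the controls, 87.05, 183, 219.9 and 179.7 CPM with siGOLM1-1 and 156, 161, 172 and 172 CPM with siGOLM1-2. The pooled change was 2.69 (SE 0.26, adjusted p = 4.66e-06), though reads of near-identical CEACAM genes may be split among them. C12orf36 followed at 2.64 (SE 0.24), with 2.17 against the control replicates 1 and 2 and 3.32 against replicates 3 and 4. The eotaxin gene CCL26 was at 2.63 (SE 0.32), and its values against those control pairs were 2.07 and 3.53. PLA2G4C, a cytosolic phospholipase, was at 2.51 (SE 0.28) and TXNIP, an inhibitor of thioredoxin and of glucose uptake, at 2.39 (SE 0.19). In CCL26, PLA2G4C and TXNIP the siGOLM1-2 libraries lay above all siGOLM1-1 libraries. TXNIP, for example, held 0.7005 to 1.18 CPM in the control, 2.63 to 4.56 with siGOLM1-1 and 6.04 to 9.06 with siGOLM1-2.

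Among genes of higher level, wide gaps separated SERPINE2, an inhibitor of thrombin and plasminogen activators, and NT5E, the ectonucleotidase CD73 that makes adenosine. SERPINE2 held 90.5, 95.01, 56.9 and 55.8 CPM in the controls, 264, 342, 376 and 365 CPM with siGOLM1-1 and 359, 368, 346 and 491 CPM with siGOLM1-2, a change of 2.28 (SE 0.18, adjusted p = 1.01e-06). NT5E rose from 23.1 to 39.5 CPM to 97.9 to 128 and 121 to 174 CPM (1.98, SE 0.17). In both genes control replicates 1 and 2 were higher than 3 and 4, and all knockdown libraries exceeded the higher pair by over 2 times. SMIM15, which encodes a small integral membrane protein, had controls that lay closer together. It was at 19.5, 19.6, 18.1 and 16.2 CPM in the control and at 53.4 to 65.9 and 48.3 to 49.8 CPM with the siRNAs (1.55, SE 0.07, adjusted p = 2.41e-08).

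**Figure D2:**
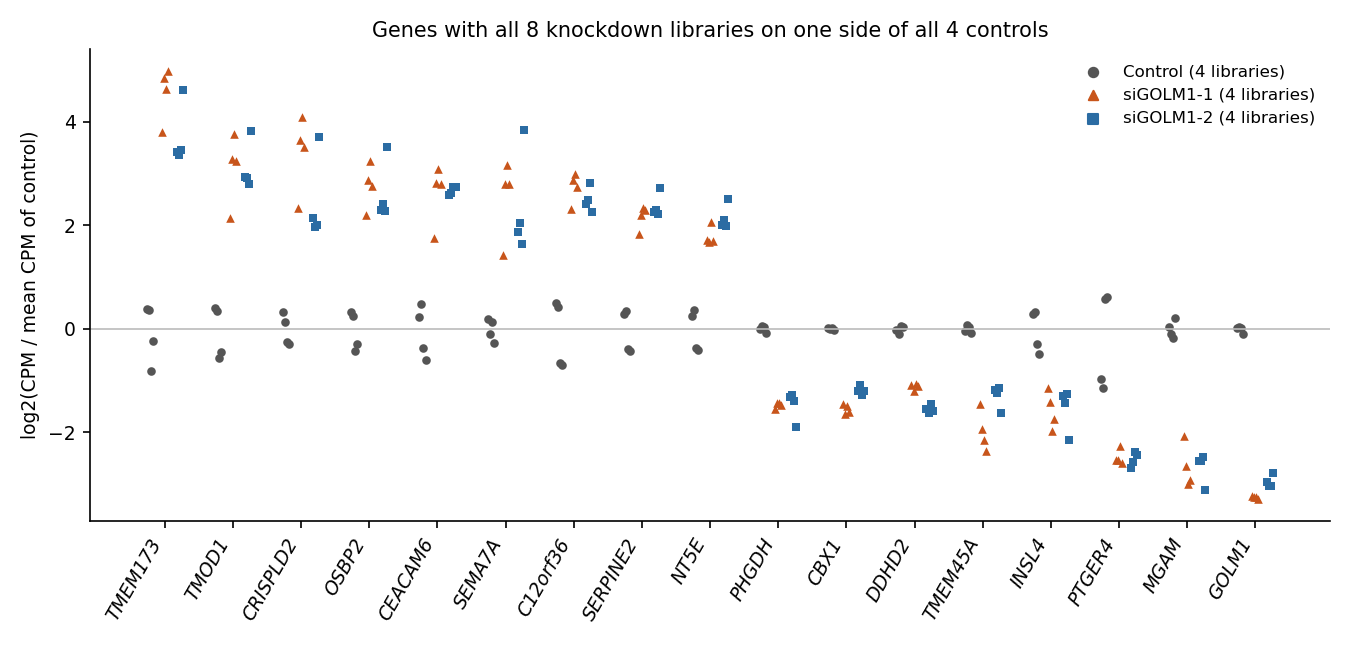
Value of each library as log2 of its CPM over the mean CPM of the 4 controls, for 17 separated genes named in the text. Each point is 1 library, and for each gene the 8 knockdown points lie on one side of the 4 control points. Control replicates lie apart in pairs for PTGER4 and INSL4 and close together for PHGDH, CBX1 and GOLM1, and siGOLM1-2 replicate 4 is the highest square for TMEM173, TMOD1, CRISPLD2, OSBP2 and SEMA7A.

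The largest fall after GOLM1 by pooled fold was in FKBP5, a chaperone partner of the glucocorticoid receptor, but its size was set by the control pair. Its controls held 22.8, 22.6, 221 and 225 CPM, against 14.9 to 19.1 CPM with siGOLM1-1 and 11.4 to 13.2 CPM with siGOLM1-2. The pooled change of -3.08 (SE 0.51) became -0.64 against the control replicates 1 and 2 and -3.93 against replicates 3 and 4. PTGER4, the prostaglandin E2 receptor EP4, and TFCP2L1, an epithelial transcription factor, had the same split. PTGER4 was at -2.49 (SE 0.29), with -1.45 against the first pair and -3.08 against the other, and TFCP2L1 at -2.41 (SE 0.36), with -1.13 and -3.06. In all 3 genes the knockdown libraries were below the lower pair too.

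MGAM, the brush-border enzyme maltase-glucoamylase, fell without a split of the controls. The controls held 18.9, 17.2, 16.3 and 21.5 CPM, the siGOLM1-1 libraries 4.42, 2.96, 2.33 and 2.46 CPM and the siGOLM1-2 libraries 3.15, 3.13, 3.35 and 2.13 CPM. The knockdown library nearest to the controls differed from the lowest control by -1.88 on the log2 scale, and the pooled change was -2.62 (SE 0.16, adjusted p = 8.41e-08). The difference between siRNAs was 0.06 (95% interval -0.39 to 0.51). BCHE, which encodes butyrylcholinesterase, fell from 6.505 to 12.02 CPM to 0.868 to 1.78 CPM with siGOLM1-1 and 3.997 to 5.89 CPM with siGOLM1-2 (-1.83, SE 0.19). WNT5A, a ligand of non-canonical Wnt signalling, fell from 7.496 to 9.33 CPM to 1.101 to 2.57 and 2.57 to 4.03 CPM (-1.79, SE 0.19). Both were lower with siGOLM1-1 than with siGOLM1-2, with differences of -1.88 (adjusted p = 2.29e-05) and -1.08 (adjusted p = 0.00155) on the log2 scale. CA9, a carbonic anhydrase induced by hypoxia, was at -1.66 (SE 0.23), TMEM45A at -1.6 (SE 0.14) and INSL4, a placental insulin-like peptide, at -1.51 (SE 0.19). IGFBP5, which binds insulin-like growth factors, was at -1.55 (SE 0.29), mostly with siGOLM1-1 (-2.54 against -0.56 with siGOLM1-2), and was not called in the 2-group fit (-1.24, adjusted p = 0.119). With siGOLM1-2 alone IGFBP5 was not called (adjusted p = 0.195).

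A tighter fall was seen in PHGDH, the first enzyme of serine synthesis from glucose. The controls held 40.7, 42.03, 41.7 and 38.3 CPM, the siGOLM1-1 libraries 13.95, 15.1, 15.1 and 14.8 CPM and the siGOLM1-2 libraries 16.4, 16.8, 15.5 and 10.9 CPM. The highest knockdown library differed from the lowest control by -1.19 on the log2 scale, with a pooled change of -1.46 (SE 0.09, adjusted p = 1.32e-07) and a difference between siRNAs of -0.02 (95% interval -0.27 to 0.24). CBX1, the heterochromatin protein HP1-beta, held 159, 158, 159 and 156 CPM in the controls, 57.5, 50.8, 56.1 and 51.7 CPM with siGOLM1-1 and 68.3, 74.8, 64.98 and 68.9 CPM with siGOLM1-2. The controls lay close together and far from every knockdown library, and the change was -1.37 (SE 0.05, adjusted p = 4.18e-09). DDHD2, a triglyceride and phospholipid lipase, fell from 63.4 to 70.003 CPM to 29.4 to 32.2 and 21.8 to 24.6 CPM (-1.33, SE 0.05). DTWD2, a tRNA modification enzyme, fell from 5.11 to 6.06 to 1.55 to 2.25 and 2.07 to 2.44 CPM (-1.4, SE 0.11).

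Some separated genes changed much more with 1 siRNA than with the other. NPR1, the receptor of atrial natriuretic peptide, held 3.46 to 3.91 CPM in the control, 19.03, 48.98, 45.04 and 52.5 CPM with siGOLM1-1 and 4.46, 4.74, 4.17 and 6.16 CPM with siGOLM1-2. The siGOLM1-2 libraries were only just above the controls, and the siRNAs differed by 3.08 (SE 0.26, adjusted p = 6.05e-07). NPR1 was not called with siGOLM1-2 (0.38, adjusted p = 0.258). RASD1, described above, was called higher with each, at 4.97 and 2.19, and differed by 2.78 (adjusted p = 1.76e-05). The sodium pump interactor NKAIN4 was also called with each, at 3.35 and 1.12, and differed by 2.23 (adjusted p = 0.000156). The pooled change of NKAIN4 was 2.23, with 1.58 against the control replicates 1 and 2 and 3.43 against replicates 3 and 4. LZTS3 was at 2.57 with siGOLM1-1 and 0.46 with siGOLM1-2, a difference of 2.11 (adjusted p = 1.39e-06). It was not called with siGOLM1-2 (adjusted p = 0.0713).

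COPS8, a subunit of the COP9 signalosome, showed the most lopsided fall. The controls held 49.2, 49.5, 58.6 and 54.7 CPM, the siGOLM1-1 libraries 7.27, 8.47, 8.69 and 7.67 CPM and the siGOLM1-2 libraries 42.8, 44.7, 43.3 and 47.9 CPM. The siGOLM1-2 libraries came close to the lowest control, and the siRNAs differed by -2.48 (SE 0.09, adjusted p = 1.49e-10). PTPLB, a dehydratase of very-long-chain fatty acid synthesis, had a similar split, at 110.1 to 129 CPM in the control, 16.3 to 22.7 CPM with siGOLM1-1 and 96.3 to 106 CPM with siGOLM1-2. In the other direction, RAN, the GTPase of nuclear transport, was at 679 to 735 CPM in the control, 515 to 619 CPM with siGOLM1-1 and 186 to 206 CPM with siGOLM1-2, a difference of 1.57 (SE 0.07, adjusted p = 1.79e-09). The annexin pseudogene ANXA2P2, which shares most of its sequence with ANXA2, was at -0.39 and -2.33. In the 2-group fit none of these 4 was called: COPS8 was at -1.01 (adjusted p = 0.218), PTPLB at -0.99 (0.206), RAN at -0.87 (0.112) and ANXA2P2 at -1.05 (0.118).

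Genes were next grouped by function, using 39 lists of 1225 genes, of which 1171 were tested. In 27 of the 39 lists the share of separated members was larger than the 16.6% of all genes tested. The lists were chosen with earlier results of these data known, so that count is only a description. The smallest of the 27 shares were in Golgi structure (17.2%), other cell types (18.2%), YAP and TEAD targets (20%) and the interferon response (20.5%). Golgi structure and other cell types lay under the 18.8% of protein-coding genes that were separated. NRF2 targets (20.6%), the unfolded protein response (20.7%), fatty acid and lipid storage (20.7%) and NF-kB and cytokines (22.6%) came next. The largest shares below control were in the lists of DNA replication and recombination, and the largest shares above control were in histone genes and p53 targets. Counts of called members below stand beside 20.4% of all genes tested called higher and 23% called lower. Counts of separated members stand beside 8.29% above control and 8.33% below.

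**Figure D3:**
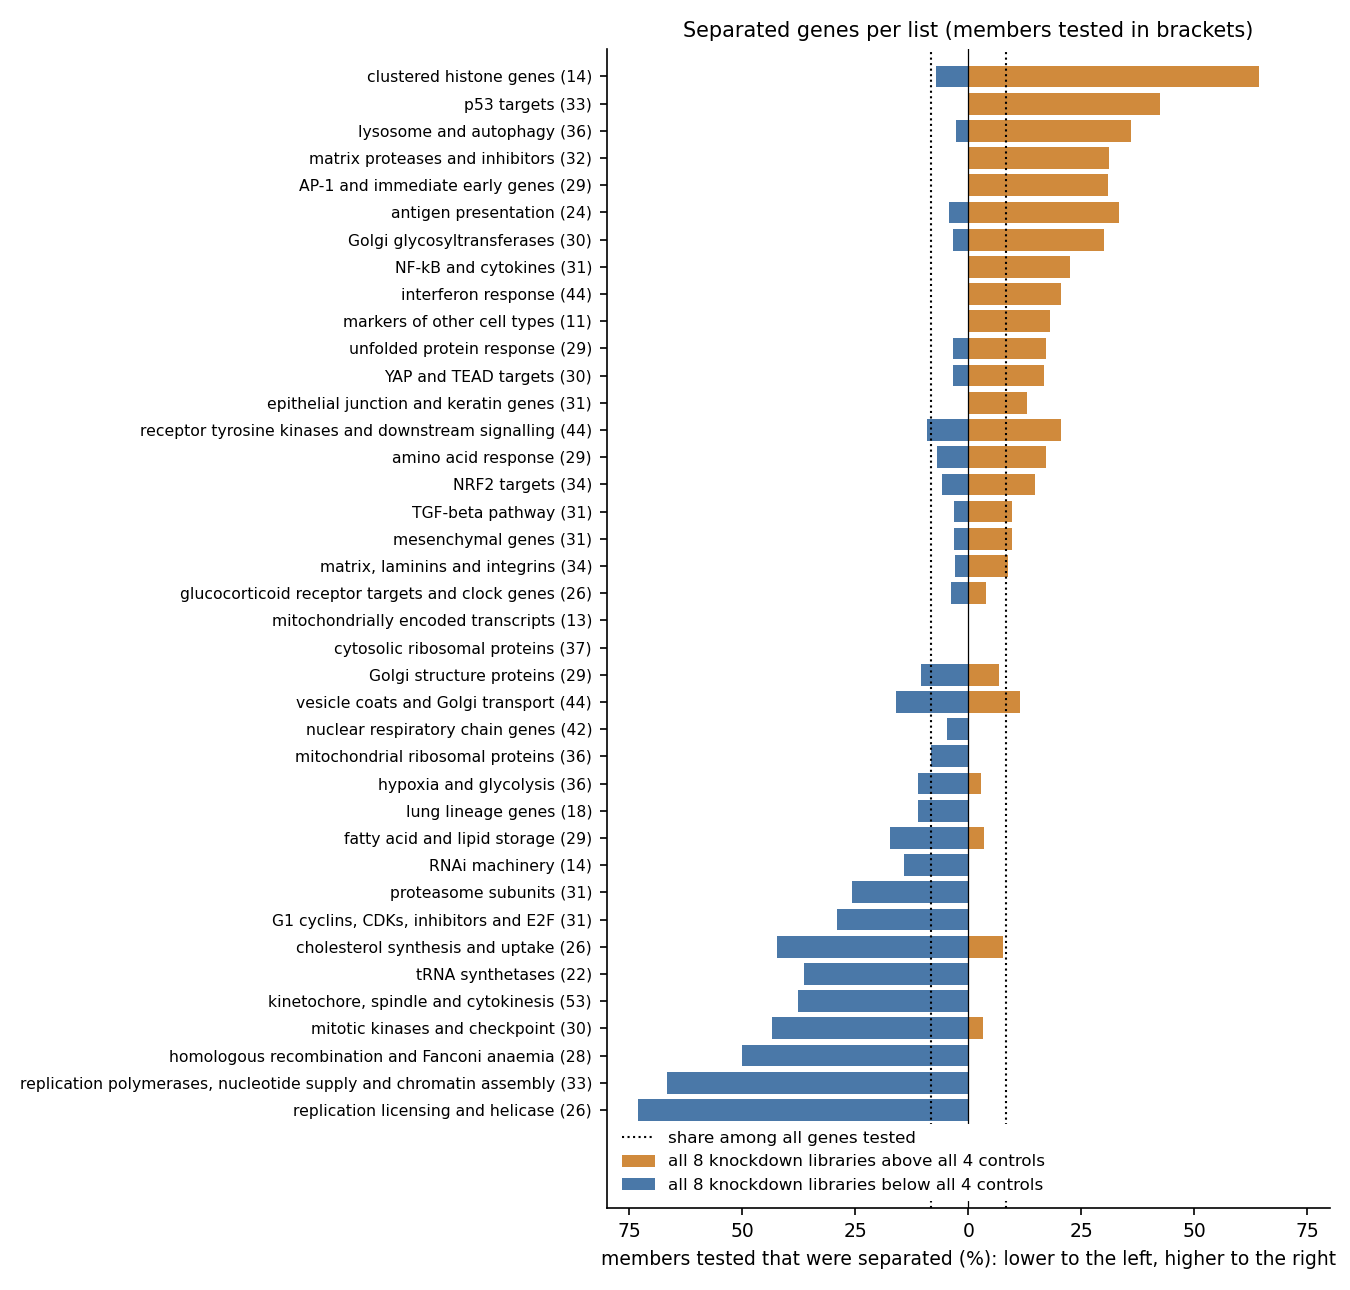
Percent of the tested members of each list that were separated, with those below control drawn to the left and those above to the right. Dotted lines mark the shares over all genes tested, 8.33% below and 8.29% above, and the number tested stands in brackets. Replication licensing and helicase genes reach 73.1% below control, and cytosolic ribosomal proteins and mitochondrial transcripts have no separated member.

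Cells copy their DNA in S phase, when licensed origins fire through the MCM helicase and the replicative polymerases, and they divide in mitosis under kinases such as Aurora A and CDK1. Genes of the first step are largely driven by E2F factors, and many genes of the second by the DREAM and MuvB complexes acting with B-MYB and FOXM1. Fewer cells in a phase of the cycle and less of a transcript per cell cannot be told apart in bulk RNA. Genes of replication fell together. Of 26 licensing and helicase genes, 25 were called lower, 1 was not called and 19 were separated below control, with a median log2 fold change of -0.73 against -0.02 over all genes tested. They include all 6 subunits of the MCM2 to MCM7 helicase, its loaders CDC6 and CDT1, its activators CDC45, GINS1 and GINS2, and the fork protection genes TIMELESS, TIPIN and CLSPN. Of 33 genes for polymerases, nucleotide supply and chromatin assembly, 27 were called lower and 22 were separated, with a median of -0.68. No member of either list was called higher. Of 28 homologous recombination and Fanconi anaemia genes, 23 were called lower and 14 were separated, with a median of -0.72.

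The words that E2F factors bind stand in the promoters of several of these genes. The windows below run from 250 bases before to 30 bases after the RefSeq start site on GRCh38.p14, and capitals mark TTTGGCGC, TTTCCCGC and TTTCGCGC on either strand. They are shown for the separated licensing genes with a word and the widest gaps. The CDC6 window is chr17:40287629-40287908 on the plus strand, the MCM3 window chr6:52284713-52284992 and the MCM6 window chr2:135876414-135876693, both on the minus strand. The word in CDC6 starts at position 8, counted from the start site as 1, and those in MCM3 at positions -174 and -4. In MCM6 the words TTTGGCGC at -152 and -90 each overlap a reverse-strand TTTCGCGC at -148 and -86.
CDC6: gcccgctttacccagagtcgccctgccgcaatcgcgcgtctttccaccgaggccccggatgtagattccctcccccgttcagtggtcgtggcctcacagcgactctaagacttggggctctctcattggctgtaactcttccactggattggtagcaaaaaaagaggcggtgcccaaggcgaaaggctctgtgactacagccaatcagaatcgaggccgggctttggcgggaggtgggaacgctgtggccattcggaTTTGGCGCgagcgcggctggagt
MCM3: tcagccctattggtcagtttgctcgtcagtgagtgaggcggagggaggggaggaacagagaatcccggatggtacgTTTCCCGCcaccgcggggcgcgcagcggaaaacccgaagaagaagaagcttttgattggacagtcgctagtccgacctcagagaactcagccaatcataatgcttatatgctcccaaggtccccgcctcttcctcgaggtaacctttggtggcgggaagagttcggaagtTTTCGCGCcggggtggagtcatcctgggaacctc
MCM6: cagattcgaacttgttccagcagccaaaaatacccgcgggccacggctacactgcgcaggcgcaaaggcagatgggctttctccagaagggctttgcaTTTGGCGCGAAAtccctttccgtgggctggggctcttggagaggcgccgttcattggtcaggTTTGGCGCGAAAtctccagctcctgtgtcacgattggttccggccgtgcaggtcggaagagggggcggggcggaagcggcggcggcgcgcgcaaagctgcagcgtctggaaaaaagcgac

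A promoter window was matched for 12228 of the 17532 genes tested (69.7%). That is under 80%, so no statement is made over all genes tested, and the shares below hold for genes with a window, over its whole 300 bases. At least 1 of the 3 words was present in 18 of the 38 separated replication genes with a window (47.4%), in 4.26% of tested genes with a window and in 2.74% of the 35116 windows in the table. It was present in 8.97% of all separated genes below control, 2.64% of those above and 3.9% of overlapping genes. A word in a window does not show that a factor binds there. Overlapping members of the replication lists were not counted apart, so these shares cannot tie the words to separation within the lists.

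CDC6, which loads the MCM helicase, held 107, 101, 82.4 and 81.7 CPM in the controls, 41.6, 42.7, 44.1 and 31.8 CPM with siGOLM1-1 and 47.7, 55.2, 49.2 and 52.3 CPM with siGOLM1-2. The pooled change was -1.04 (SE 0.09, adjusted p = 2.26e-06). The helicase subunit MCM3 held 154, 155, 142 and 137 CPM in the controls, 62.1, 51.02, 56.3 and 47.9 CPM with siGOLM1-1 and 90.6, 98.9, 92.3 and 78.2 CPM with siGOLM1-2. The siGOLM1-1 libraries were all below the siGOLM1-2 libraries (difference -0.73, SE 0.09, adjusted p = 1.6e-05), and the pooled change was -1.07 (SE 0.08). MCM4 was at -0.87 (SE 0.1) and MCM6 at -0.87 (SE 0.07). CHAF1B, a subunit of the chromatin assembly factor CAF-1, had the widest gap of its list. It fell from 32.7 to 35.9 CPM to 12.2 to 14.6 and 13.98 to 17.5 CPM (-1.21, SE 0.07, adjusted p = 7.73e-08). The polymerase subunit POLE2 was at -1.06 (SE 0.12), the clamp loader subunit RFC4 at -0.8 (SE 0.07) and RRM1, the large subunit of ribonucleotide reductase, at -0.84 (SE 0.08). For POLE2, RFC4 and RRM1 the siRNAs did not differ at an adjusted p under 0.05, and the 95% intervals of their differences were -0.47 to 0.18, 0.02 to 0.4 and -0.15 to 0.28. Of the recombination genes, the nuclease EXO1 was at -0.99 (SE 0.11), and the Fanconi genes FANCD2 and FANCG at -1.09 (SE 0.14) and -0.88 (SE 0.09).

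Mitosis genes were called lower more often than they were separated. Of 30 mitotic kinase and checkpoint genes, 26 were called lower and 1 higher, 13 were separated below control and 1 above, with a median of -0.63. Of 53 kinetochore, spindle and cytokinesis genes, 44 were called lower and 20 were separated, with a median of -0.73. These counts depended on control replicates 3 and 4: against replicates 1 and 2 alone, 25 and 41 members of the 2 lists lay below both controls in all 8 knockdown libraries, and against replicates 3 and 4 alone 12 and 20. AURKA, the Aurora A kinase of spindle assembly, held 168, 163, 131 and 127 CPM in the controls, 30.4, 24.6, 25.1 and 19.3 CPM with siGOLM1-1 and 60.8, 73.96, 62.3 and 56.6 CPM with siGOLM1-2. Every siGOLM1-1 library was below every siGOLM1-2 library. The pooled change was -1.89 (SE 0.11, adjusted p = 7.99e-08) and the difference between siRNAs -1.35 (SE 0.14, adjusted p = 2.28e-06). TPX2, which activates Aurora A, had the same order, with -1.86 for siGOLM1-1 and -0.95 for siGOLM1-2. The spindle checkpoint kinase TTK was at -1.43 (SE 0.19), the CDK1-inhibiting kinase PKMYT1 at -1.04 (SE 0.08), the sister cohesion gene CDCA5 at -1.18 (SE 0.09), the kinetochore genes CENPM and NUF2 at -1.04 (SE 0.09) and -1.1 (SE 0.15), and FBXO5, an inhibitor of the anaphase-promoting complex, at -0.63 (SE 0.08). The exception in the lists was CDC25B, a phosphatase that activates CDK1 at entry to mitosis. It was above control in all 8 libraries, at 243 to 324 CPM in the control, 378 to 509 CPM with siGOLM1-1 and 346 to 373 CPM with siGOLM1-2 (0.57, SE 0.09).

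Mitosis genes carried another word. TTTGAA is a form of the cell cycle genes homology region bound by MuvB complexes. The windows of the chromokinesin gene KIF4A (chrX:70289854-70290133, plus strand) and the mitotic kinase gene CDK1 (chr10:60778081-60778360, plus strand) are shown in the same form, with the word in capitals at positions -34 and -161. These 2 genes were chosen after their values were seen. NUF2, whose gap was wider (-0.38 against -0.29 for KIF4A and -0.18 for CDK1 on the log2 scale), held the word at position 17 and is not shown. Here too, a word in a window does not show that a complex binds there.
KIF4A: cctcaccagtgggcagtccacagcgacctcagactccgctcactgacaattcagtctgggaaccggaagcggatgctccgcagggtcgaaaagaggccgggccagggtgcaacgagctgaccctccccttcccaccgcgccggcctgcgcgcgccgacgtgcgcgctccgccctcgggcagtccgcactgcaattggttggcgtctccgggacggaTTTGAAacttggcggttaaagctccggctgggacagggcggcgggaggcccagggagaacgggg
CDK1: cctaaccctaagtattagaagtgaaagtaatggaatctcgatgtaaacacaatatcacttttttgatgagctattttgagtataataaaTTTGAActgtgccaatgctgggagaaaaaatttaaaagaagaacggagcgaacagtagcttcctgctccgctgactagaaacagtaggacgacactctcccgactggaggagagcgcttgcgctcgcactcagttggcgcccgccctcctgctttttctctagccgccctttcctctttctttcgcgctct

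TTTGAA, on either strand, was present in 15 of the 27 separated mitosis genes with a window (55.6%) and in 2 of the 38 separated replication genes (5.26%), against 9.93% of tested genes with a window and 15.2% of all windows. CCAAT, the word of NF-Y, was present in 66.7% of those mitosis genes and 57.9% of the replication genes, against 36% of tested genes with a window and 34.6% of all windows. A high share of CCAAT was not particular to these lists. Among genes with a window, it was present in 8 of 8 cholesterol genes separated below. Of those separated above, 5 of 10 p53 targets and 0 of 7 lysosome genes held it. Here too, overlapping members of the lists were not counted apart. CDK1 fell from 129.9, 125, 89.04 and 82.3 CPM in the controls to 72.5, 52.3, 54.1 and 37.99 CPM with siGOLM1-1 and 44.7, 47.4, 43.8 and 29.8 CPM with siGOLM1-2. Control replicates 1 and 2 were higher than 3 and 4, and siGOLM1-1 replicate 1 came nearest to the controls (-1.17, SE 0.17). KIF4A was at -1.0 (SE 0.17).

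**Figure D4:**
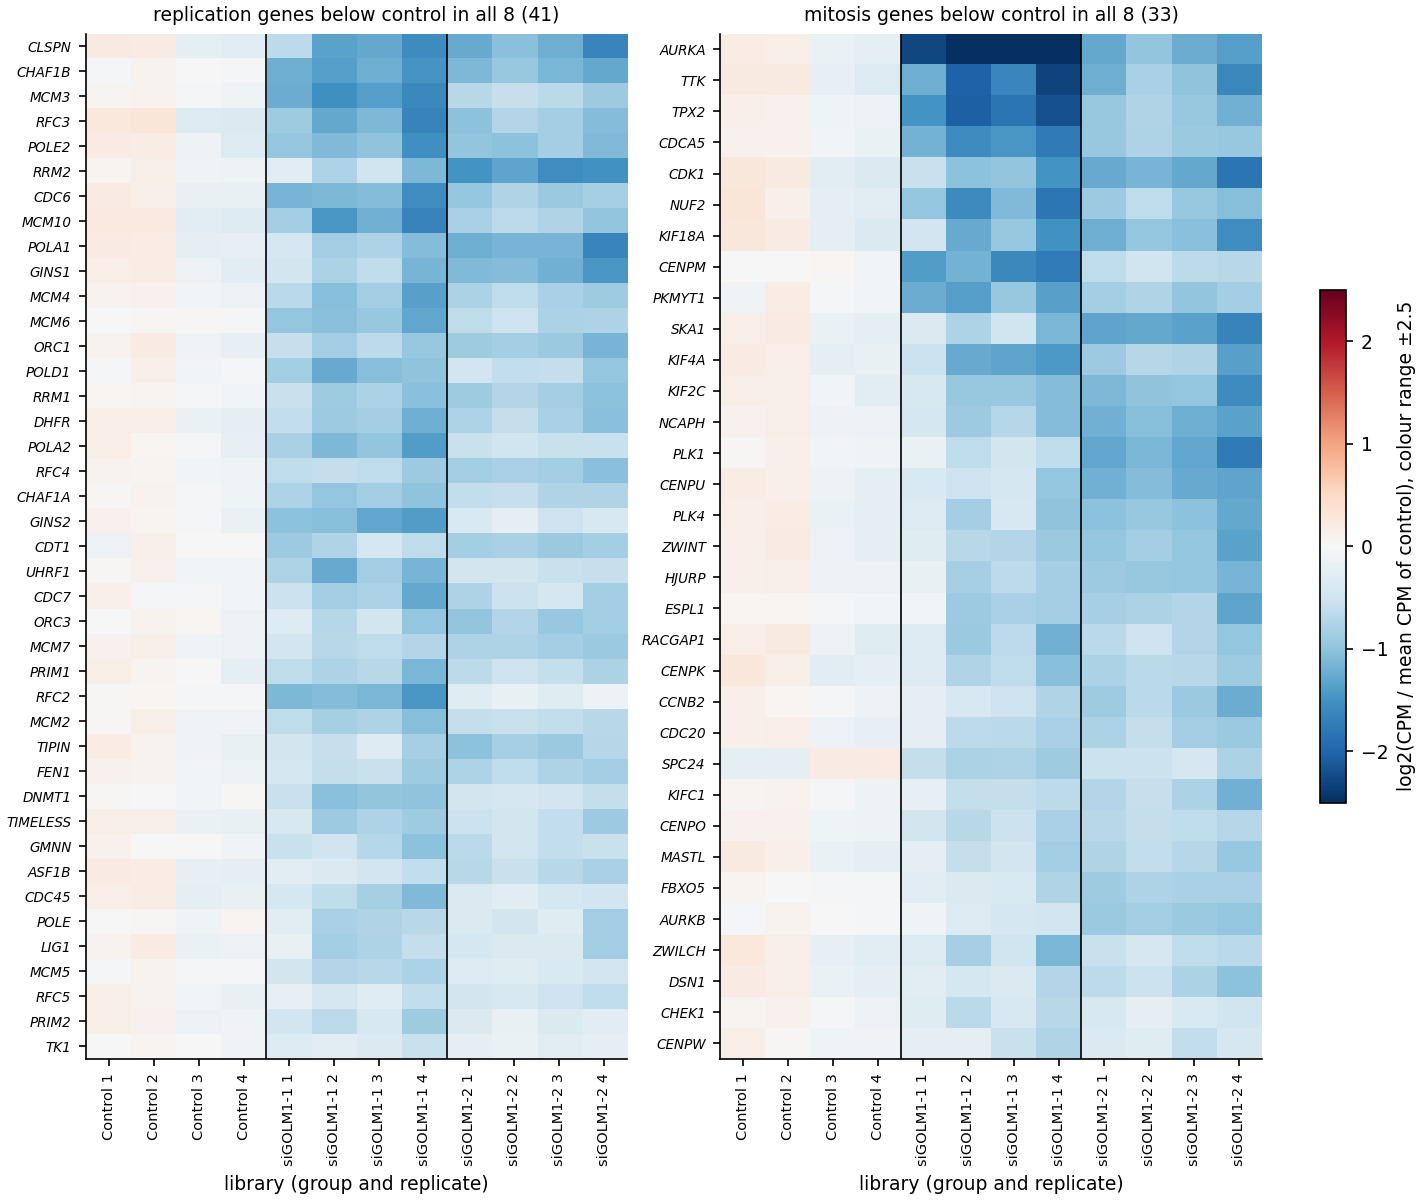
Level of each separated replication gene (left, 41 genes) and mitosis gene (right, 33 genes) in the 12 libraries, as log2 of CPM over the mean of the controls, blue below and red above. Rows are ordered by pooled fold change and black lines divide control, siGOLM1-1 and siGOLM1-2. AURKA, TTK and TPX2 are lowest with siGOLM1-1, and RRM2 and PLK1 with siGOLM1-2.

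Of 31 genes for G1 cyclins, CDKs, their inhibitors and E2F factors, 15 were called lower, 2 higher and 9 were separated, all below control. The 9 included the mitotic regulators MYBL2 (B-MYB) and FOXM1 and the factor E2F1. E2F8, a repressor E2F, fell from 10.03 to 12.2 CPM to 4.32 to 5.69 and 2.83 to 3.56 CPM (-1.46, SE 0.1, adjusted p = 1.94e-07). E2F2, an activator, was at -1.11 (SE 0.12) and TFDP1, the DNA-binding partner of E2F factors, at -0.97 (SE 0.06). CDK2, the kinase that works with cyclins E and A, held 75.7, 76.5, 74.9 and 70.8 CPM in the controls, 27.2, 24.2, 26.8 and 24.3 CPM with siGOLM1-1 and 51.04, 55.1, 51.1 and 57.6 CPM with siGOLM1-2. It was lower with siGOLM1-1 than with siGOLM1-2 (siGOLM1-1 minus siGOLM1-2 -1.07, adjusted p = 3.21e-08). TFDP1 was lower with siGOLM1-2 (0.66, adjusted p = 6.5e-06).

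The transcription factor p53 responds to DNA damage and other stress by inducing genes of arrest, repair and cell death. Of 33 p53 targets, 24 were called higher, 1 lower and 14 were separated, all above control, with a median log2 fold change of 0.51. BTG2, an antiproliferative target, held 20.1, 22.6, 19.6 and 18.9 CPM in the controls, 102, 81.2, 87.4 and 78.9 CPM with siGOLM1-1 and 43.3, 42.9, 44.4 and 58.7 CPM with siGOLM1-2 (1.66, SE 0.1, adjusted p = 1.25e-07). The siGOLM1-1 libraries were higher than all siGOLM1-2 libraries. BBC3, the pro-apoptotic protein PUMA, rose from 14.7 to 17.7 CPM to 48.5 to 61.3 and 33.6 to 41.995 CPM (1.49, SE 0.09), and again farther with siGOLM1-1. SESN2, a stress-induced inhibitor of mTORC1 signalling, rose from 23.4, 24.9, 24.5 and 24.4 CPM in the controls to 54.4 to 62.1 and 46.4 to 59.1 CPM (1.18, SE 0.07), and the siRNAs differed by 0.13 (95% interval -0.04 to 0.31). PHLDA3, a repressor of AKT, was at 0.83 (SE 0.1). The other separated targets included the BH3-only gene PMAIP1, the death receptor gene TNFRSF10A, GADD45A, the repair gene XPC, and PPM1D, a phosphatase that acts back on p53.

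Clustered histone genes, whose transcripts mostly lack a poly(A) tail and are therefore poorly caught in mRNA libraries, had the largest share above control. Of 14 tested, 9 were separated above and 1 below, with a median of 0.92, 10 called higher and 2 lower. HIST1H2BK rose from 42.9 to 52.1 CPM to 81.2 to 85.5 and 87.8 to 99.7 CPM (0.88, SE 0.07). HIST1H1C, a linker histone, rose from 13.2 to 16.03 CPM to 42.9 to 58.3 and 22.4 to 29.1 CPM (1.31, SE 0.1). HIST1H2BC was at 1.44 (SE 0.15) and HIST1H2BD at 0.99 (SE 0.08). The member below control was HIST2H2AC, at 0.906 to 1.299 CPM in the control and 0.338 to 0.678 CPM in the knockdown libraries. Near-identical histone genes may share reads.

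AP-1 and immediate early genes, which respond to growth factors and stress, had 9 of 29 members separated (31%), all above control. Over all genes tested the share was 16.6%, with 8.29% above. Of the 29, 15 were called higher and 0 lower. DUSP5, a nuclear ERK phosphatase, held 41.1, 40.9, 25.3 and 22.7 CPM in the controls, 219, 318, 369 and 288 CPM with siGOLM1-1 and 69.7, 70.9, 73.2 and 126 CPM with siGOLM1-2. It rose with each, by 3.2 and 1.39 on the log2 scale, and siGOLM1-2 replicate 4 was above its fellow libraries. KLF2 rose from 2.17 to 3.44 CPM to 6.76 to 11.2 and 7.79 to 9.72 CPM (1.58, SE 0.17), KLF4 was at 0.96 (SE 0.13) and the small MAF factor gene MAFF at 1.84 (SE 0.29).

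Sterol synthesis genes were lower and a pair of sterol exporters higher. Cells make cholesterol from acetyl-CoA under the control of SREBP2 and export it through ABC transporters that are induced by LXR. Of 26 genes of cholesterol synthesis and uptake, 13 were called lower and 5 higher, and 11 were separated below control and 2 above. The other 3 called higher were not separated. Those below included HMGCS1, MVK, FDPS, FDFT1, SQLE, LSS, MSMO1, HSD17B7, EBP and DHCR7, all enzymes of the pathway from acetyl-CoA to cholesterol, and the 2 above were the exporters ABCA1 and ABCG1. ABCA1 held 35.5, 28.7, 25.4 and 27.2 CPM in the controls, 187, 154, 152 and 121 CPM with siGOLM1-1 and 67.7, 73.9, 76.6 and 107 CPM with siGOLM1-2 (1.94, SE 0.15, adjusted p = 8.57e-07). ABCG1 held 14.7, 15.8, 13.1 and 13.2 CPM, 38.6, 46.8, 52.2 and 58.4 CPM and 42.8, 42.6, 44.4 and 33.8 CPM in the same order (1.65, SE 0.12). Both stood apart from the controls in every library, and ABCA1 rose farther with siGOLM1-1 (difference 0.92, adjusted p = 0.000275).

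The separated synthesis genes differed in which siRNA lowered them more. DHCR7, the reductase of the last step to cholesterol, fell from 196, 211, 228 and 220.004 CPM in the controls to 119, 127, 125 and 134 CPM with siGOLM1-1 and 93.8, 97.5, 99.6 and 111 CPM with siGOLM1-2 (-0.93, SE 0.06, adjusted p = 1.52e-07). HMGCS1, a synthase early in the pathway, was split in the controls, at 160.3, 158, 234 and 227 CPM, and lay at 82.4 to 120.3 CPM in the knockdown libraries (-0.97, SE 0.12). The late enzyme EBP was at -0.66 (SE 0.07). DHCR7 fell farther with siGOLM1-2 and EBP with siGOLM1-1. Of 29 fatty acid and lipid storage genes, 11 were called lower and 6 higher, with 5 separated below control and 1 above (11 and 2 when only control replicates 3 and 4 were used, 5 and 7 when only replicates 1 and 2 were). Over all genes 2503 lay below and 2663 above against replicates 3 and 4 alone, and 2386 and 2355 against replicates 1 and 2 alone. SCD, the stearoyl-CoA desaturase, fell from 1302 to 1455 CPM to 828 to 931 and 575 to 693 CPM (-0.87, SE 0.07). FASN, the fatty acid synthase, was at -0.81 (SE 0.07) and the elongase gene ELOVL5 at -0.63 (SE 0.06).

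**Figure D5:**
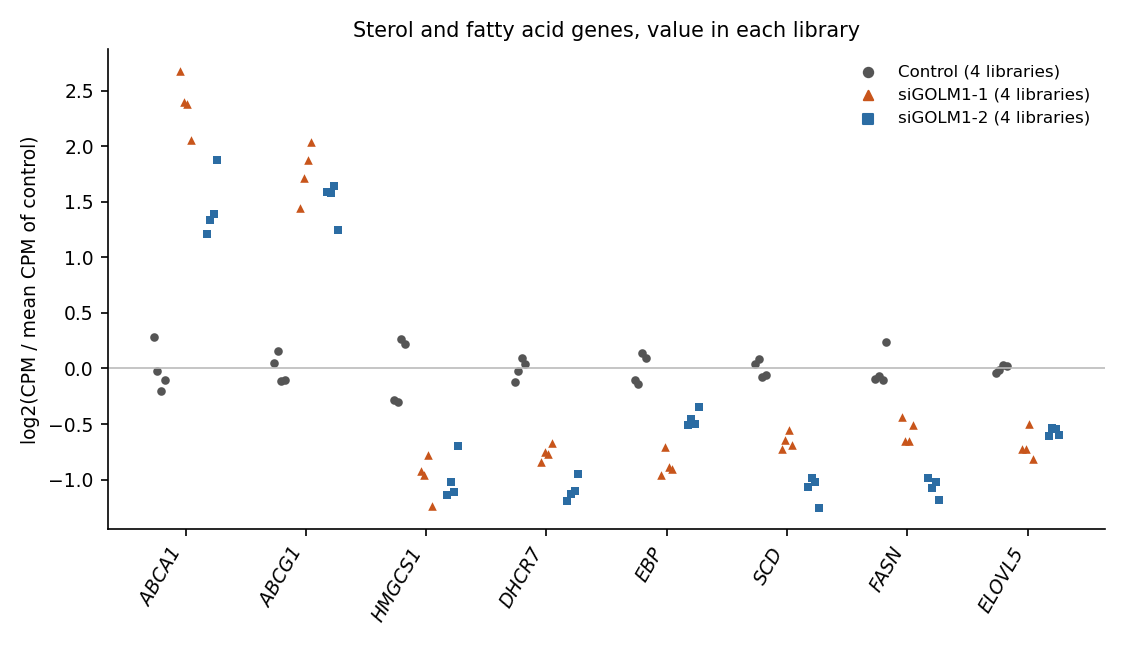
Level of sterol and fatty acid genes in each library, as log2 of CPM over the mean of the 4 controls, 1 point per library. The exporters ABCA1 and ABCG1 lie above the controls in all 8 knockdown libraries and the 6 synthesis genes below, with DHCR7, SCD and FASN lower with siGOLM1-2 and EBP lower with siGOLM1-1.

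The lists of transfer RNA synthetases and proteasome subunits had separated members only on the lower side. The proteasome subunit PSMB10, separated above control (1.35, SE 0.14), is counted with antigen presentation below and not here. Of 22 synthetases, 13 were called lower and 8 were separated, with a median of -0.22. FARSB, a subunit of phenylalanyl-tRNA synthetase, fell from 86.9 to 93.3 CPM to 48.9 to 61.8 and 55.1 to 61.5 CPM (-0.66, SE 0.07), and the valyl synthetase gene VARS was at -0.73 (SE 0.06). With library totals as the scaling, 7 synthetases lay below control and 1 above. Of 31 proteasome subunits, 15 were called lower, 1 higher and 8 were separated below control. PSMD1 was at -0.52 (SE 0.06) and PSMD6 at -0.46 (SE 0.05), both subunits of the regulatory cap. With library totals, 8 subunits lay below and 2 above.

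The medians of 2 stress lists were higher with siGOLM1-1 than with siGOLM1-2, a difference that was not tested over the lists. NRF2 targets, which serve oxidative defence, had a median of 0.65 with siGOLM1-1 and 0.03 with siGOLM1-2. Of 34 members, 20 were called higher and 3 lower in the pooled test, but only 5 were separated above control and 2 below. TALDO1, an enzyme of the pentose phosphate pathway, was at 235 to 252 CPM in the control, 446 to 535 CPM with siGOLM1-1 and 314 to 327 CPM with siGOLM1-2 (0.72, SE 0.07). TXN, thioredoxin, was at 1.1 with siGOLM1-1 and 0.21 with siGOLM1-2, and was not called with siGOLM1-2 (adjusted p = 0.105). The aldose reductase gene AKR1B1 moved farther with siGOLM1-2 (0.65 and 1.08). PGD, another pentose phosphate enzyme, was lower, at -0.28 (SE 0.07). The amino acid response list, whose genes are driven by ATF4, had medians of 0.75 and -0.16 with siGOLM1-1 and siGOLM1-2. Of its 29 members, 5 were separated above control and 2 below. CHAC1, which degrades glutathione, was at 1.25 (SE 0.16), the stress regulator NUPR1 at 1.01 (SE 0.19) and the secreted hormone gene STC2 at 1.14 (SE 0.27, 0.93 without siGOLM1-2 replicate 4). SLC7A5, the leucine transporter LAT1, was lower in all 8 libraries, at 1573 to 1732 CPM in the control and 1029.9 to 1238 CPM in the knockdown libraries (-0.54, SE 0.06). PHGDH, described above, is the other separated member below control. Of 29 genes of the unfolded protein response, 5 were separated above and 1 below, and the medians were 0.13 and 0.03. In this list 7 were called higher and 4 lower, beside 20.4% and 23% of all genes tested.

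Lysosome and autophagy genes had 13 of 36 members separated above control and 1 below, with 23 called higher, 3 lower and a median of 0.30. PSAP, the precursor of the saposins that assist sphingolipid breakdown, held 1682, 1657, 1560.1 and 1502 CPM in the controls, 2433, 2949.7, 2852 and 3080.1 CPM with siGOLM1-1 and 2331, 2284, 2331 and 2299 CPM with siGOLM1-2 (0.68, SE 0.07, adjusted p = 1.09e-05). CTSA, the protective protein cathepsin A, rose from 161 to 174 CPM to 234 to 347 and 273 to 315 CPM (0.8, SE 0.09), with a difference between siRNAs of 0.01 (95% interval -0.21 to 0.23). The membrane protein gene LAMP2 was at 0.63 (SE 0.07) and the beta-galactosidase gene GLB1 at 0.49 (SE 0.06).

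Structural genes of the Golgi, the organelle where GOLM1 resides, were separated about as often as all genes tested (17.2% against 16.6%). Of 29 Golgi structure genes, 2 were separated above control and 3 below (GOLM1 itself is not in the list), with 8 called higher, 4 lower and a median of 0.04. Over all genes tested 20.4% were called higher and 23% lower. GOLGA3, a golgin, went from 95.4 to 120.4 CPM to 125 to 144 CPM (0.3, SE 0.06), and the sialoglycoprotein gene GLG1 was at 0.29 (SE 0.06). GOLPH3L, which binds phosphoinositides at the trans-Golgi, was at -0.45 (SE 0.11), and it was not called against control replicates 3 and 4 alone (-0.38, adjusted p = 0.0542). With library totals as the scaling, 1 member of this list lay above control and 1 below. Of 44 vesicle coat and transport genes, 5 were separated above and 7 below, with a median of -0.01. That is 27.3% separated, a larger share than the 16.6% of all genes tested. The cargo receptor genes TMED9 and MCFD2 were at 0.37 (SE 0.07) and 0.64 (SE 0.09), and the coat subunit genes SEC24B of COPII and COPZ1 of COPI at -0.49 (SE 0.07) and -0.48 (SE 0.06).

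Golgi glycosyltransferases, which build the sugar chains of secreted and membrane proteins, had 9 of 30 members separated above control and 1 below. That is 33.3% separated, against 16.6% of all genes tested. ST3GAL4, a sialyltransferase, held 15.3, 13.6, 13.4 and 13.7 CPM in the controls, 23.1, 38.9, 31.2 and 35.5 CPM with siGOLM1-1 and 30.2, 31.8, 28.97 and 43.5 CPM with siGOLM1-2 (1.23, SE 0.14, adjusted p = 1.67e-05). GALNT1, which starts mucin-type O-glycans, rose farther with siGOLM1-1 (1.1) than with siGOLM1-2 (0.37), by 0.74 (adjusted p = 1.88e-06). The branching enzymes of O-glycans GCNT1 and GCNT3 were at 0.95 (SE 0.13) and 0.57 (SE 0.07). MGAT5, which branches N-glycans, was the member below control, at 48.2 to 53.8 CPM in the control and 32.5 to 42.9 CPM in the knockdown libraries (-0.43, SE 0.06).

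Immune lists had few members below control. Interferon response genes had 9 of 44 separated (20.5%), all above, against 16.6% of all genes tested on either side and 8.29% above. In this list 23 were called higher and 7 lower, but the median was 0.02 with siGOLM1-1 and 1.08 with siGOLM1-2. IRF7, a master regulator of interferon genes, rose from 2.88, 4.62, 3.45 and 3.91 CPM in the controls to 6.97 to 11.9 and 9.904 to 13.6 CPM (1.53, SE 0.17), and the siRNAs differed by -0.23 (95% interval -0.62 to 0.17). IRF1 was at 0.67 (SE 0.11) and the antiviral gene TRIM22 at 0.86 (SE 0.11). TMEM173, described above, is also a member. Of 24 antigen presentation genes, 8 were separated above and 1, the NKG2D ligand gene MICA, below. Those above included HLA-B, HLA-C, HLA-E, the peptide loading genes TAPBP and TAPBPL, the trimming peptidase gene ERAP1 and PSMB10. The immunoproteasome subunit PSMB10 rose from 2.07 to 2.597 CPM to 4.96 to 8.3 and 4.72 to 5.37 CPM (1.35, SE 0.14). HLA-E was at 0.65 (SE 0.06); reads of HLA genes may be shared. Without siGOLM1-2 replicate 4 these changes were 1.36 and 0.62.

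NF-kB and cytokine genes had 7 of 31 separated (22.6%), all above control, against 16.6% of all genes tested on either side and 8.29% above. Of the 31, 16 were called higher and 1 lower, beside 20.4% and 23% of all genes tested. RELB, a subunit of the non-canonical pathway, held 11.1, 11.1, 10.1 and 9.52 CPM in the controls, 22.2, 39.7, 47.2 and 38.96 CPM with siGOLM1-1 and 26.8, 24.95, 22.96 and 48.7 CPM with siGOLM1-2 (1.69, SE 0.23). The adhesion molecule gene ICAM1 was at 1.95 (SE 0.34, 1.74 without siGOLM1-2 replicate 4) and TNFAIP2 at 0.86 (SE 0.09). IL6 was low in the controls, at 0.101 to 0.289 CPM, and in siGOLM1-1, at 0.384 to 0.912 CPM. In siGOLM1-2 it held 3.55, 3.71, 2.43 and 17.4 CPM, so its pooled change of 3.29 (SE 0.67) was 2.75 without replicate 4. With siGOLM1-1 alone IL6 was not called (adjusted p = 0.128). Of the list of genes of other cell types, 2 of 11 tested were separated above control and 0 below. One of them, the monocyte marker CD14, was at 6.705 to 7.33 CPM in the control and 9.36 to 15.2 CPM in the knockdown libraries. Of the markers of immune cells, CD68 and PTPRC were at 0.106 CPM or less in every library, and the part of other cells in these results was not tested.

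Proteases and their inhibitors had 10 of 32 members separated (31.2%), all above control, with 17 called higher and 1 lower. Over all genes tested the separated share was 16.6%, with 8.29% above. CTSL, the cysteine protease cathepsin L, held 371, 351, 298 and 282 CPM in the controls, 611, 1245, 1074 and 1251 CPM with siGOLM1-1 and 670.1, 657, 659 and 917 CPM with siGOLM1-2 (1.42, SE 0.18). MMP7, the metalloproteinase matrilysin, rose from 82.4 to 107 CPM to 171 to 191 and 210.5 to 261 CPM (1.15, SE 0.09, adjusted p = 5.15e-07). The metalloproteinase inhibitor genes TIMP2 and TIMP3 were at 1.02 (SE 0.11) and 1.92 (SE 0.32, 1.63 without siGOLM1-2 replicate 4). FURIN, a convertase that cleaves GOLM1 and that was chosen after its values were seen, went from 177, 185, 191 and 191 CPM in the controls to 236 to 284 and 241 to 262 CPM (0.44, SE 0.06, adjusted p = 7.58e-05).

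Of 34 matrix, laminin and integrin genes, 18 were called higher and 5 lower, beside 20.4% and 23% of all genes tested. Only 3 were separated above and 1 below. That is 11.8% separated, and mesenchymal genes and epithelial junction and keratin genes had 12.9% each, under the 16.6% of all genes tested. ITGB1, the common beta subunit of matrix-binding integrins, rose from 1181 to 1539.96 CPM to 1942 to 2463 and 1942 to 2177 CPM (0.64, SE 0.09), and ITGB5 was at 0.38 (SE 0.06). LAMA3, a laminin of epithelial basement membranes, was at 0.99 (SE 0.2), with 1.6 against the control replicates 1 and 2 and 0.58 against replicates 3 and 4. Of 31 mesenchymal genes, 3 were separated above and 1 below: the collagen VI genes COL6A1 and COL6A2 at 1.17 (SE 0.18) and 1.42 (SE 0.21), SERPINE2, and the actin-binding caldesmon gene CALD1 at -0.96 (SE 0.1). Of 31 epithelial junction and keratin genes, 4 were separated, all above, among them the desmosomal cadherin gene DSC2 at 1.55 (SE 0.14), the tight junction gene CLDN1 at 1.42 (SE 0.21) and the serine protease inhibitor gene SPINT1 at 0.67 (SE 0.13). With only control replicates 3 and 4, 7 epithelial genes lay above and 6 below, and with only replicates 1 and 2, 7 lay above and 1 below. Separation was also commoner over all genes with a single control pair, at 5166 and 4741 genes in that order beside 2913 with all 4 controls.

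Receptor tyrosine kinase genes and their downstream signalling had 9 of 44 members separated above control and 4 below. That is 29.5% separated, against 16.6% of all genes tested. RET, the receptor of GDNF ligands, rose from 0.402 to 0.721 CPM to 2.47 to 3.81 and 1.41 to 2.23 CPM (2.12, SE 0.21). The mannose 6-phosphate receptor gene IGF2R was at 0.69 (SE 0.12) and the kinase gene MAP2K2 at 0.74 (SE 0.13). Members below control included the receptors FGFR2 at -1.35 (SE 0.24; -0.67 against the control replicates 1 and 2 and -1.79 against replicates 3 and 4) and FGFR4 at -0.87 (SE 0.12), and the kinase PIK3CA at -0.62 (SE 0.11). For FGFR4 and PIK3CA the highest knockdown library nearly reached the lowest control, with gaps of -0.07 and -0.04 on the log2 scale. Of 31 genes of the TGF-beta pathway, 3 were separated above and 1 below (12.9% against 16.6% of all genes tested). They included the decoy receptor gene BAMBI at 0.61 (SE 0.07) and the stress cytokine GDF15, whose controls held 56.7, 53.99, 14.04 and 14.7 CPM. The pooled change of GDF15, 1.21 (SE 0.35, adjusted p = 0.0148), was 0.54 against the control replicates 1 and 2 and 2.5 against replicates 3 and 4, and it was not called when the low-count filter was dropped (adjusted p = 0.0674). With siGOLM1-2 alone GDF15 was not called (0.97, adjusted p = 0.0595). Of 30 YAP and TEAD targets, 5 were separated above and 1 below, among them AMOTL1 at 0.94 (SE 0.09).

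Like the matrix, mesenchymal, epithelial and TGF-beta lists, the lists that follow had a smaller share of separated members than the 16.6% of all genes tested. It was close to that share for hypoxia and glycolysis (13.9%) and the RNAi machinery (14.3%). None of the 37 cytosolic ribosomal protein genes was separated, and 35 were not called. None of the 13 mitochondrially encoded transcripts was separated, with 4 called lower and a median of -0.41. Nuclear respiratory chain genes had 2 of 42 members separated and mitochondrial ribosomal proteins 3 of 36, all below control, and under library totals 7 and 4 lay below. Hypoxia and glycolysis genes had 4 of 36 separated below and 1 above: LDHA, lactate dehydrogenase A, was at -0.31 (SE 0.06), and CA12, a carbonic anhydrase, at 0.76 (SE 0.09). Of 26 glucocorticoid receptor targets and clock genes, FKBP5 and the kinase gene SGK1, at 0.66 (SE 0.1), were the 2 separated members, on opposite sides. Of 18 lung lineage genes, the receptor gene AGER at -0.83 (SE 0.18) and the endodermal factor HNF4A at -0.59 (SE 0.07) were separated below control. Of 14 genes of the RNAi machinery, 2 were separated below, RAN among them and the microRNA processing nuclease gene DROSHA at -0.37 (SE 0.07). Counts below control were larger against control replicates 3 and 4 alone, where 2503 of all genes lay below. There, 17 respiratory chain genes, 11 mitochondrial ribosomal protein genes, 14 hypoxia and glycolysis genes and 9 glucocorticoid and clock genes lay below control. Against replicates 1 and 2 alone, where 2386 of all genes lay below, the counts were 2, 3, 6 and 1, and 8 cytosolic ribosomal protein genes lay above control.

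The remaining 16 genes with values over 1.5 times apart kept their direction against each control pair, which follows from their being separated from every control. The pair of values, against control replicates 1 and 2 and then against replicates 3 and 4, was 3.84 and 4.71 for TMEM173, 2.82 and 3.72 for TMOD1, 2.48 and 3.14 for OSBP2, and 2.33 and 3.17 for CEACAM6. In the same order it was 1.97 and 2.7 for SERPINE2, 1.67 and 2.39 for NT5E, 3.0 and 3.64 for IL6, 1.31 and 1.92 for KLF2, 1.96 and 2.74 for DUSP5, and 1.52 and 2.26 for MAFF. It was 1.28 and 1.89 for DSC2, 1.85 and 2.46 for RET, -1.39 and -2.16 for BCHE, and -1.22 and -1.98 for CA9. In these 14 genes the change was larger against replicates 3 and 4. The placental peptide gene INSL4 (-1.81 and -1.11) and the stress regulator NUPR1 (1.41 and 0.71) changed more against replicates 1 and 2.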

How the data were processed

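RNA from 12 A549 libraries was measured by RNA sequencing. Per the labels' protocols, libraries were prepared with the TruSeq Stranded mRNA kit and read from both ends on a NovaSeq instrument. The authors deposited a table of raw counts for 57773 genes, and, per the submitters' processing notes, used bcl2fastq 2.20, STAR 2.7.3, the hg19 build and DESeq2 1.24.0. The counter, annotation and strand setting are not given in the sources used here, so overlapping, antisense and near-identical genes are uncertain. Tables of the authors' own comparisons were also deposited, and their log2 fold changes, p-values, scores and signal columns support no value here.

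Counts were analysed with edgeR 4.0.16 in R 4.3.3: filterByExpr left 17532 genes, libraries were scaled by TMM, and 1 robust quasi-likelihood fit of 3 groups (9 residual degrees of freedom, biological coefficient of variation 0.146) gave every adjusted p unless another tool is named. The pooled contrast weights the siRNAs equally, p-values were adjusted by Benjamini-Hochberg over all 17532 genes, and 95% intervals come from the same fit. CPM are counts per 1000000 of the TMM-scaled library total, and the gap of a gene uses a floor of 1 count (0.0194 CPM). Standard errors (SE) are of log2 values, and each group has n = 4.

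Members and lists were chosen with earlier results of these data known. Named genes are GOLM1, the 12 largest separated rises and falls and the 8 widest gaps each way where the higher arm averaged 5 CPM or more, the 5 largest siRNA differences each way, up to 4 separated members a list and direction with the widest gaps, and the edge genes. Not every gene the rule allowed is described, and some are not reported here. Promoter windows came from the RefSeq table on GRCh38.p14, searched on both strands for the E2F words TTTCCCGC or TTTGGCGC or TTTCGCGC, for TTTGAA and for CCAAT. Other words searched are not described. The fit was tested on simulated data. Alternatives were other scaling, filters, DESeq2 1.42.0, a 2-group fit, a replicate block and libraries left out.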

Additional observations from a re-analysis of the deposited data

Results flagged for a closer look

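In each group of 4 libraries, a gene was marked when its highest or lowest library stood away from the nearest other one by more, relative to the group's whole range, than Dixon's criterion for 4 samples allows. Over the 151 genes named, 45 of 453 groups were marked (9.93%), where chance marks about 1 in 20. SiGOLM1-2 replicate 4 gave 26 of the marks and siGOLM1-1 replicate 1 gave 7. Genes named together share libraries, so the marks are not independent.

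SiGOLM1-2 replicate 4 held the highest value of its group, given in CPM against the nearest other library, for TMEM173 (6.403 against 2.86), TMOD1 (22.7 against 12.2), CRISPLD2 (23.8 against 8.03), OSBP2 (55.1 against 25.4), SEMA7A (11.9 against 3.44), CCL26 (16.1 against 10.1), PLA2G4C (18.8 against 10.2), SERPINE2 (491 against 368) and BTG2 (58.7 against 44.4). It also held the highest value for NUPR1 (31.6 against 25.1), STC2 (45.2 against 19.8), IRF1 (38.9 against 29.9), HLA-E (175 against 153), RELB (48.7 against 26.8), ICAM1 (8.49 against 3.82), IL6 (17.4 against 3.71), DUSP5 (126 against 73.2) and MAFF (10.5 against 5.13). It also held the highest value for COL6A1 (97.2 against 60.5), CLDN1 (121 against 71.05), CTSL (917 against 670.1), TIMP3 (6.78 against 2.64) and LAMA3 (216 against 167). SiGOLM1-1 replicate 1 held the lowest value for AKR1B1 (2808 against 4068), IRF1 (28.2 against 40.1), TIMP2 (346 against 474) and GDF15 (72.8 against 100.4). SiGOLM1-1 replicate 4 held the lowest value for GOLM1 (37.5 against 38.7), RFC4 (22.2 against 26.7) and GALNT1 (368 against 435). SiGOLM1-1 replicate 3 held the highest value for NT5E (128 against 100.1), PTGER4 (1.28 against 1.05) and AMOTL1 (72.9 against 66.1). SiGOLM1-2 replicate 4 held the lowest value for IGFBP5 (4.43 against 11.02), ABCG1 (33.8 against 42.6) and MMP7 (210.5 against 254). SiGOLM1-1 replicate 1 held the highest value for FANCD2 (25.5 against 17.5), KIF4A (50.2 against 30.4) and TRIM22 (13.5 against 9.12). SiGOLM1-2 replicate 2 held the highest value for CDCA5 (50.6 against 45.4). Control replicate 4 held the highest value for FASN (873 against 709). SiGOLM1-1 replicate 4 held the highest value for TIMP3 (7.03 against 5.04). Control replicate 3 held the highest value for ITGB5 (523 against 492). Control replicate 1 held the highest value for ST3GAL4 (15.3 against 13.7). SiGOLM1-2 replicate 2 held the lowest value for CD14 (10.6 against 12.1).

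The genes of siGOLM1-2 replicate 4 marked as high include members of the NF-kB, interferon, protease and collagen groups, and IGFBP5, ABCG1 and MMP7 were marked as low in it. The library's total and mitochondrial share lay within the range of the other siGOLM1-2 libraries or just below it, at 48.8 M counts and 4.87% against 46.8 M to 56.2 M and 5.26 to 7.27%, and their part in the marks was not tested.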

How the results depend on the processing

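Of 3170 alternative values of the 151 named genes, 3163 kept their direction and their side of the threshold, 7 kept the direction but were no longer called and 0 reversed. These genes were picked as separated, so leaving libraries out could hardly reverse a direction, and the 0 is read as no support. The 7 were IGFBP5, ANXA2P2, COPS8, PTPLB and RAN in the 2-group fit, GDF15 without the filter on low counts and GOLPH3L without control replicates 1 and 2. In the 2-group fit the calls were 3603, with 1880 higher and 1723 lower, since the difference between siRNAs then counts as spread. DESeq2 called 7904 genes, DESeq2 size factors 7556, library totals 7591, no filter 6940 and a floor of 1 CPM in 4 or more libraries 7069.

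Fewer controls make separation easier to reach. Without control replicates 1 and 2, 5166 genes were separated (2663 above and 2503 below), of which 2397 differed between siRNAs, and without replicates 3 and 4, 4741 (2355 above and 2386 below), of which 2088 differed. These fits called 2648 and 2635 of the 2913 separated genes on the same side. Leaving out each library in turn gave 6523 to 8070 calls (3091 to 3824 higher and 3384 to 4246 lower), 3002 to 3478 separated genes (1502 to 1750 above and 1479 to 1735 below), 1166 to 1533 of them different between siRNAs, and 25 to 29 lists above the share of all genes. With library totals, 2519 of the 2913 genes remained separated. Replicate numbers did not pair the libraries: 5 of 12 same-numbered pairs had deviations correlated above 0.1 (-0.28 to 0.42), and 4 of 12 libraries correlated best with their own number. With the replicate block, 7662 genes were called (3649 higher and 4013 lower), and 2883 of the 2913. P-values measure the spread between these libraries, and the fit does not model the control pairs, so standard errors may be too small. Genes under about 1 CPM rest on few counts.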
